A study of Mus musculus with 4 samples.

Results

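Cytosolic ribosomal protein genes were examined for peaks of ATF4 pull-down in heart ventricle of mice aged 4 weeks. The genes were taken from the protein-coding models of mouse build mm10 by symbol: Rpl or Rps followed by a number, with an optional a, x, y or l, together with Rplp0, Rplp1, Rplp2 and Rpsa, and without Rps6k kinase genes and pseudogenes. This gave 81 of 21900 protein-coding genes, 50 for the large subunit and 31 for the small subunit. The rule used no measured value. Chromatin of the ventricle was crosslinked, sheared, cleared on protein A beads and captured on streptavidin beads, which hold biotin. The series has 2 pull-down samples, ATF4-bio1 and ATF4-bio2, called replicate 1 and replicate 2 here, and 2 input samples whose values are not analysed here. The labels enter AAV as the antibody of the pull-down samples and give no strain, genotype or vector, so whether the captured ATF4 was the heart's own cannot be told from them. Separate animals are not named for them, and the spread between the replicates may therefore be technical.

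Cytosolic ribosomes are built from ribosomal RNA and a fixed set of proteins, most of which are encoded by single, short, highly transcribed genes spread over nearly all chromosomes. Their mRNAs start with a run of pyrimidines, the terminal oligopyrimidine (TOP) tract, through which mTOR signalling controls their translation. ATF4 is a basic leucine zipper factor of the integrated stress response, which slows general translation, and it is known to bind composite C/EBP-ATF response elements and cAMP response elements, mostly as a dimer with other leucine zipper factors.

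Each pull-down sample had its own list of peaks, with 78746 peaks in replicate 1 and 88812 in replicate 2, and a series-wide list held 41639. Most peaks of the series-wide list were copies of a replicate peak, and 3172 (7.62%) were not identical to any. A fold is the authors' enrichment value of a peak and stands in the series-wide list only. Copies were found for 17420 peaks of replicate 1 and 21053 of replicate 2. The fold of every replicate peak was inferred from the −log10 p-value or q-value in its list. It was the most frequent fold among copies with the same value. Replicate folds of peaks without a copy, and SDs that include them, thus rest on other peaks. Folds below 7.5 in replicate 1 and 7.54 in replicate 2 matched no copy, were continued by equal steps and are not the authors' values. Folds rose in fixed steps of 0.5 in replicate 1 and 0.443 in replicate 2, so a fold is counted over a constant background and not over input or local signal. Folds were not scaled between samples, and sequencing depth is unknown. Genes expressed in cardiomyocytes carried peaks in every list, 8 of 8 in the series-wide list, and Tnnt2, which encodes cardiac troponin T, had 62.0 fold in replicate 1 and 60.3 in replicate 2. Of the markers of other cells, 1 of 3 fibroblast, 1 of 3 endothelial, 1 of 3 immune and 0 of 3 neuronal genes were covered at a gene end in the series-wide list, beside 34.9% of all genes. In replicates 1 and 2 it was 2 and 3 fibroblast, 2 and 2 endothelial, 2 and 1 immune and 2 and 1 neuronal genes, beside 48.2% and 50.2% of all genes. A peak places captured chromatin and does not by itself show ATF4 on the DNA.

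The promoters below show the DNA at the starts of some of these genes. Of the 81 genes, 61 had promoter entries in the RefSeq tables of GRCm38.p6, the assembly of mm10. Each line runs 5′ to 3′ along the gene, from 250 bases before a RefSeq transcription start to the 29 bases after it, 280 bases in all. Capitals mark TGACGTCA, its core TGACG, the ETS letters CCGGAAG and the YY1 letters AAGATGG on either strand, and a pyrimidine run over the start. Rpl41 (chr10:128549139-128549418, minus strand), Rps6 (chr4:86857338-86857617, minus strand) and Rps26 (chr10:128626477-128626756, minus strand) are shown because they are 3 of the 4 members with the highest peaks. Rpl8, also of these 4, had no entry.
Rpl41: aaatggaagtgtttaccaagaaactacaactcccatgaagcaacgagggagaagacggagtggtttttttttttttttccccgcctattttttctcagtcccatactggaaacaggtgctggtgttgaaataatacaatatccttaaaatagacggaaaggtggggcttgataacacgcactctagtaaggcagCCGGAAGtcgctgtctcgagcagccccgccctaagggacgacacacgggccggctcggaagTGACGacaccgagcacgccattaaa
Rps6: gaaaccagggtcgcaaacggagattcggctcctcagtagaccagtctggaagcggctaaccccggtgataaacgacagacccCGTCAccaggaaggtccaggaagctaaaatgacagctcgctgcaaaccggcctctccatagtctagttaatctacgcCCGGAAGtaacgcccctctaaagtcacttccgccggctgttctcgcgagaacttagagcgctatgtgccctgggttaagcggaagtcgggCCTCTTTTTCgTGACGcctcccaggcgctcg
Rps26: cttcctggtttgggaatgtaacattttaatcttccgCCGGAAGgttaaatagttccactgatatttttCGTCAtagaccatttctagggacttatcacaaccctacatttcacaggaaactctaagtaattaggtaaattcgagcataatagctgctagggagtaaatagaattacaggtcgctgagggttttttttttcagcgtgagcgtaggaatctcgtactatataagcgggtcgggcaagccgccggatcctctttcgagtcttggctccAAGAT

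Rps9 (chr7:3703791-3704070, plus strand), Rpl26 (chr11:68901316-68901595, plus strand) and Rpl13 (chr8:123102100-123102379, plus strand) are shown because they hold the full cAMP response element. They were chosen after their letters were seen.
Rps9: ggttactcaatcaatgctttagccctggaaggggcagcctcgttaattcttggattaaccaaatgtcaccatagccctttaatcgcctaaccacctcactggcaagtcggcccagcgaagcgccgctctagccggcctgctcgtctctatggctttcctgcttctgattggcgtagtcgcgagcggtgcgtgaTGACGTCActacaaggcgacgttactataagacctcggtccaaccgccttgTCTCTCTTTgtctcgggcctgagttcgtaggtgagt
Rpl26: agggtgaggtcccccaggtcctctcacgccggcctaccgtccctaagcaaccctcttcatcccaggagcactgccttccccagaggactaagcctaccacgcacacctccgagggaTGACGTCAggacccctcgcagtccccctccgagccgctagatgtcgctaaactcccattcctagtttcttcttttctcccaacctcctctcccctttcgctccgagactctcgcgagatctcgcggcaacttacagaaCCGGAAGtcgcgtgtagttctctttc
Rpl13: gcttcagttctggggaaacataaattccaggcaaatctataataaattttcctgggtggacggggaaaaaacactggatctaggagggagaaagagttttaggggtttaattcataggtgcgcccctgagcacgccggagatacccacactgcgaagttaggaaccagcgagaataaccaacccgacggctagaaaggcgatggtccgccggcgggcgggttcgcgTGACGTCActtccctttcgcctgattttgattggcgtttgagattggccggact

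Rpl10l (chr12:66284372-66284651, minus strand), a paralog of Rpl10 known from testis, had no peak in any list. Rpl19 (chr11:98026460-98026739, plus strand) had no peak at the ends of its gene model but had peaks at the RefSeq start shown. Both are printed to set these cases beside the strong ones.
Rpl10l: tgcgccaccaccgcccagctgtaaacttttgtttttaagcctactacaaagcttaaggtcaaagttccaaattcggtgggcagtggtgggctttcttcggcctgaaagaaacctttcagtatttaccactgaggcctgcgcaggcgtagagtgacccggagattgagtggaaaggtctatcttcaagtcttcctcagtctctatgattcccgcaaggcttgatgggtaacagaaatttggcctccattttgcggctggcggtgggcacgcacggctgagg
Rpl19: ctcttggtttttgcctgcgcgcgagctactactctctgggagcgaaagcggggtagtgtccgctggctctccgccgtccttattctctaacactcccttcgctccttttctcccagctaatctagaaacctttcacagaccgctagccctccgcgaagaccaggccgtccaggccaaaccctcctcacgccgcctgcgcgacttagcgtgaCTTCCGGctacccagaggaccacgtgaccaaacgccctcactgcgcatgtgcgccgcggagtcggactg

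Peaks lay at most of the genes. In the series-wide list a peak lay within 1 kb of an end of the gene model at 62 of 81 (76.5%), where 34.9% of all protein-coding genes had one. In replicate 1 the count was 73 (90.1%), beside 48.2% of all genes, and in replicate 2 it was 74 (91.4%), beside 50.2%. The members' shares were thus above those of all genes in each of the 3 lists. Here and below, counts and medians are descriptions of these lists, and no test was run on them.

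The large and small subunit did not stand apart in this count. In the large subunit 38 of 50 genes (76%) had a series-wide peak, and in the small subunit 24 of 31 (77.4%). The median fold of the strongest peak was 15.3 for the large and 14.5 for the small subunit. Genes for ribosomal proteins are short: the median model length was 3175 bp, beside 17146 bp for all genes, while the windows at the ends were the same size for all.

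**Figure D1:**
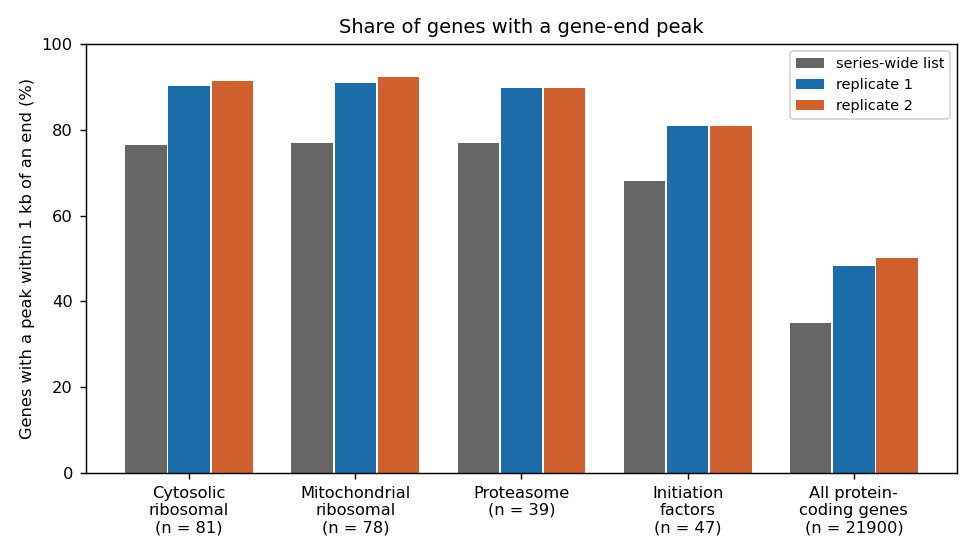
Share of genes (%) with a peak within 1 kb of an end of the gene model, in the series-wide list (grey), replicate 1 (blue) and replicate 2 (orange), for 81 cytosolic ribosomal protein genes, 78 mitochondrial ribosomal protein genes, 39 proteasome genes, 47 initiation factor genes and all 21900 protein-coding genes. The cytosolic ribosomal genes reach 76.5%, 90.1% and 91.4%, against 34.9%, 48.2% and 50.2% of all genes.

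The strongest peaks of the members spanned a wide range of folds. In the series-wide list the fold ran from 8.0 to 35.5 with quartiles of 12.4 and 19.4. The median was 14.5, beside 13.3 over all genes with a gene-end peak, and 38 of the 62 (61.3%) lay above the median of all genes. Another comparison is the level of 26.2, which the highest 10% of all genes with a peak pass, and 9 members (14.5%) lay above it. In the replicates the medians were 12.5 and 12.6, beside 10 and 10.2 over all genes. The share of members with a peak therefore stood further from that of all genes than the level of the peak did.

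In the small subunit, Rps6, the protein that S6 kinases phosphorylate (series-wide peak at chr4:86856862-86857767, mm10), had 33.0 fold in replicate 1 and 28.4 in replicate 2 (30.7 ± 3.28, SD, n = 2). Rps26, which lies near the path of the mRNA (chr10:128626302-128627016), had 32.5 and 28.4 fold (30.4 ± 2.92, SD, n = 2). Rps19, a gene mutated in Diamond-Blackfan anaemia (chr7:24883908-24885019), had 30.5 and 30.1 fold (30.3 ± 0.254, SD, n = 2). These were the highest values of the small subunit, with replicate 1 above replicate 2 in each.

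Further down, Rps12 had 19.5 fold in replicate 1 and 19.1 in replicate 2, and Rps29 had 18.0 and 17.7. Rps27a, made as a fusion with ubiquitin, had 16 and 18.6. Rps3, a protein of the mRNA entry site, had 14.0 and 13.3. Among the lowest of the small subunit with a series-wide peak were Rps20 with 9.0 and 9.31, and Rps24 with 8.0 and 9.75. The strongest Rps24 peaks lay at opposite ends of the gene in the replicates, and at its start the folds were 7.5 and 9.75. These low genes differed from Rps6, Rps26 and Rps19 by far more than the replicates of any of them did.

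In the large subunit, Rpl41, which encodes the smallest ribosomal protein (chr10:128548897-128549494), had the highest fold of all members, 35.5 in replicate 1 and 32.8 in replicate 2 (34.2 ± 1.91, SD, n = 2). Rpl8, a protein close to the peptidyl transferase centre (chr15:76903724-76904627), followed with 33.5 and 32.4 fold. Rpl37 had 29.0 and 23.9, Rpl35a had 27.0 and 23.5, and Rpl9 had 26 and 22.6. Rpl4, which lines the exit tunnel, had 22.5 and 27.0 fold, Rpl3, near the catalytic centre, had 23.0 and 26.6, and Rpl27 had 24.0 and 26.2. In the first 5 of these genes replicate 1 was higher and in the other 3 replicate 2 was. Their order among themselves did not hold in both replicates.

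Rpl24, a protein of the bridge between the subunits, was among the highest in the series-wide list and replicate 1 but not in replicate 2. It had 24.5 fold in replicate 1 and 12.4 in replicate 2 (18.5 ± 8.55, SD, n = 2). Rpl5 and Rpl11 carry the 5S ribosomal RNA into the ribosome and bind Mdm2. Rpl5 had 13.5 fold in replicate 1 and 12.9 in replicate 2. Rpl11 had 8.0 and 7.54 (7.77 ± 0.329, SD, n = 2), the lowest series-wide value of the set. Rpl23a, at the exit of the tunnel, had 9.0 and 8.87. Rpl11 and Rpl23a lay below the 8 highest genes of the large subunit in both replicates.

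The P-stalk, which recruits elongation factors to the ribosome, is formed by Rplp0, Rplp1 and Rplp2 on a base that includes Rpl12. Rplp1 had 20.0 fold in replicate 1 and 22.2 in replicate 2 (21.1 ± 1.53, SD, n = 2). Rplp0 had 10 and 8.87 fold (9.43 ± 0.803, SD, n = 2), Rplp2 had 8.0 and 11.5 (9.76 ± 2.49, SD, n = 2), and Rpl12 had 7.5 and 11.1 (9.29 ± 2.53, SD, n = 2). All of them had a series-wide peak. Rplp1 stood above the other 3 in both replicates, and those 3 did not differ beyond their spread.

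**Figure D2:**
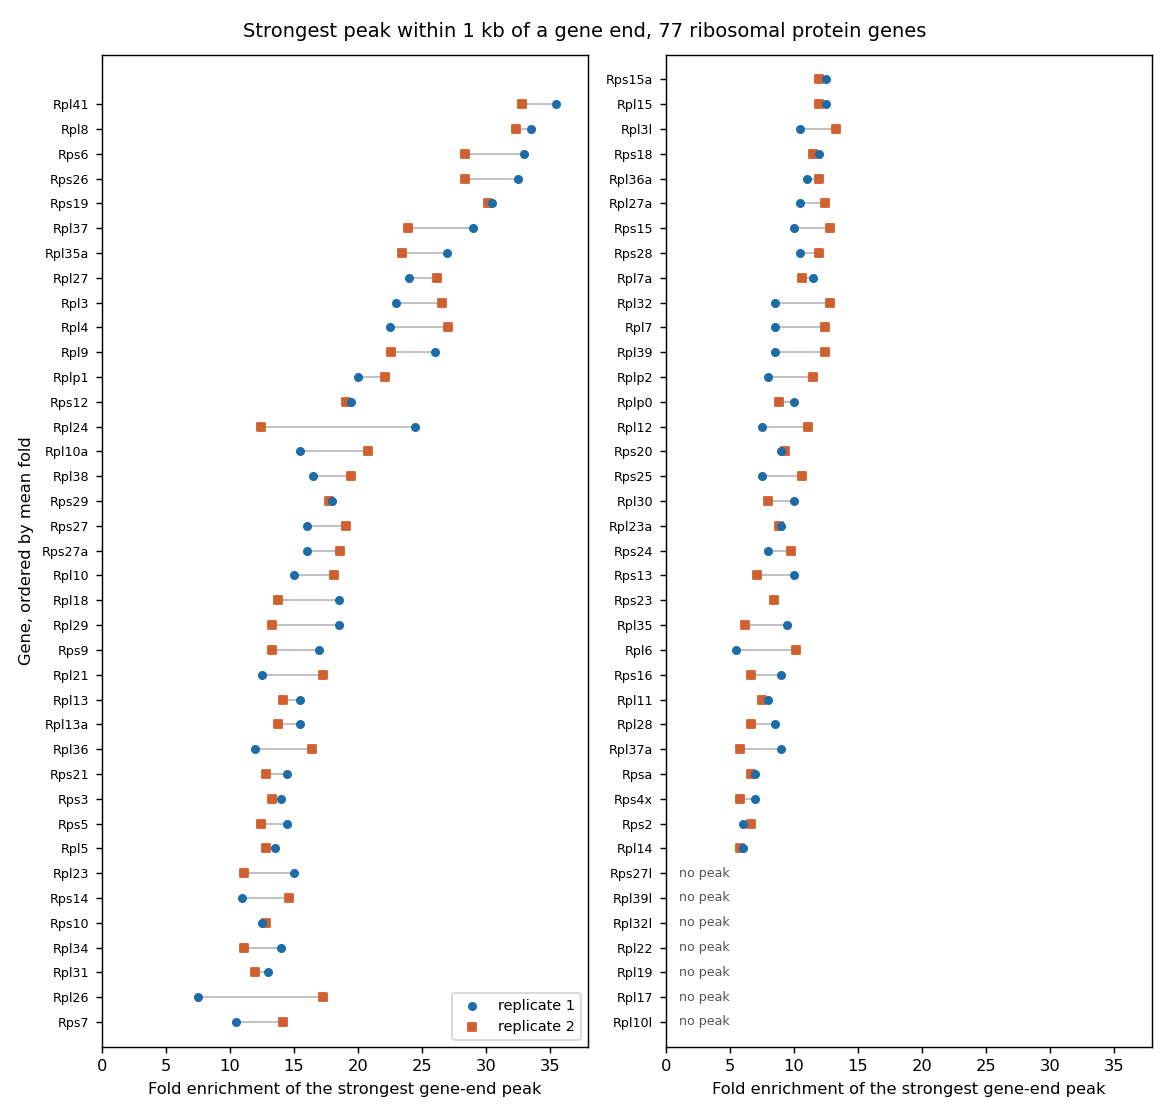
Fold enrichment (linear axis from 0) of the strongest peak within 1 kb of a gene end for 77 of the 81 genes (4 are not reported here), in replicate 1 (blue circles) and replicate 2 (orange squares), joined by a grey line and ordered by the mean. Rpl41 at the top has 35.5 and 32.8 fold, and 7 genes have no gene-end peak in either replicate.

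Nearly all gene-end peaks of the members were found in both samples. Both replicate lists had a peak at 73 genes (90.1%), beside 45.2% of all genes. Neither list had a peak at 7 of the 81, Rpl10l, Rpl17, Rpl19, Rpl22, Rpl32l, Rpl39l and Rps27l, beside 46.8% of all genes. A peak in a single list occurred at 1 member, Rps23, with 8.42 fold in replicate 2, beside 8.04% of all genes. Of the members with a peak in either replicate, 98.6% had it in both (73 of 74), and over all genes this was 84.9% (9901 of 11661).

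The folds of the replicates followed each other closely. Replicate 1 was higher at 42 members and replicate 2 at 31. The larger fold exceeded the smaller by a median factor of 1.18, and by more than 1.5 at 6 genes, Rpl24, Rpl26, Rpl32, Rpl35, Rpl37a and Rpl6. The same factors over all genes are not given here. Rpl26 differed most, with 7.5 fold in replicate 1 and 17.3 in replicate 2, a factor of 2.30. Spearman's rho across the 73 genes was 0.81, and 0.788 across all genes with peaks in both lists. These are descriptions across genes that share their libraries.

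The strongest peaks of the replicates overlapped at 69 of 73 members (94.5%), beside 91.6% over all genes. At Rpl36, Rps15a, Rps2 and Rps24 the strongest peaks lay at different places. At Rps15a, for example, the start had 12.5 fold in replicate 1 and 9.31 in replicate 2, and the opposite end had 9.5 and 12. At Rpl36 the peak at the lower end of the model had 12 and 13.3 fold, and the peak at the upper end, in the window of Lonp1, had 10.5 and 16.4. At Rps15a and Rpl36 both peaks were thus present in both samples, and their order changed.

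Where the peaks overlapped, their summits lay a median of 28 bp apart, beside 32 bp over all genes, and at 48 of the 69 members the gap was 50 bp or less. The share of all genes with such a gap is not given here. The widest gaps were 244 bp at Rps29, 234 bp at Rpl32, 232 bp at Rps27 and 217 bp at Rps14. At Rps27 the summit was 170 bp after the RefSeq start in replicate 1 and 62 bp before it in replicate 2.

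Of the 19 members without a series-wide peak, 11 nevertheless had gene-end peaks in both replicates: Rpl14, Rpl26, Rpl28, Rpl35, Rpl37a, Rpl6, Rps13, Rps16, Rps2, Rps4x and Rpsa. These are 11 of the 81, and over all genes the share was 11%. Their folds ran from 5.5 to 10 in replicate 1 and up to 17.3 in replicate 2. Rpsa, which is also known as a laminin receptor, had 7.0 fold in replicate 1 and 6.65 in replicate 2. Rpl14 had 6.0 and 5.76, and Rpl6 had 5.5 and 10.2. Of these values for Rpsa, Rpl14 and Rpl6, only the 10.2 was read through copies, and the rest were continued by steps. None is the authors' value for the peak itself. Apart from Rpl26 in replicate 2, these genes lay below the members' median fold in both samples.

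At some genes the ends of the model and the starts of the RefSeq promoter table differ. The table lists starts inside some models, and the model start lay more than 500 bp from any listed start at Rpl18, Rpl19, Rpl38, Rps2 and Rps27l. Within 1 kb of a listed start, 47 of 61 members (77%) had a series-wide peak, beside 35.4% of all genes with an entry. In replicate 1 it was 57 (93.4%), beside 48.4%, and in replicate 2 it was 58 (95.1%), beside 50.2%. Rpl19, Rpl22, Rps2 and Rps27l had a series-wide peak at a listed start and none at a model end.

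At its listed start Rpl22 had 16 fold in replicate 1 and 19.5 in replicate 2. Rpl19 had 14.0 and 18.2, Rps27l had 12.5 and 12, and Rps2 had 9.5 and 10.6. Rpl18 had 14.5 and 19.5 at its listed start, in addition to a peak of 18.5 and 13.7 fold near the far end of its model, in the window of Fam83e. These folds lie within the range of the other members. With a window at either a model end or a listed start, 66 of 81 members had a series-wide peak, 76 a peak in replicate 1 and 77 a peak in replicate 2. A joint window can only raise a count, and the share of all genes under it is not given here.

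Rpl10l, Rpl17, Rpl32l and Rpl39l then remained without a peak in both replicates, and Rps23 in replicate 1. Rpl17, which had no promoter entry, had a peak inside its model more than 1 kb from both ends, with 8.0 fold in replicate 1 and 6.65 in replicate 2. Rpl10l, Rpl32l and Rpl39l end in l, the mark of a paralog. Of the 56 members with a listed start whose symbol does not end in l, 55 had a peak there in replicate 1 and all 56 in replicate 2.

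The 5 paralogs ending in l were set beside their parent genes. Rpl10 had 15.0 fold in replicate 1 and 18.2 in replicate 2, and Rpl10l had no peak. Rpl39 had 8.5 and 12.4, and Rpl32 had 8.5 and 12.9, while Rpl39l and Rpl32l had none. Rps27 had 16 and 19.1, and Rps27l, a target of p53, had the peak at its listed start given above. Rpl39l is known from male germ cells, as Rpl10l is.

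Rpl3l is known to replace Rpl3 in ribosomes of adult heart and skeletal muscle. Rpl3 had 23.0 and 26.6 fold at an end of its model, and a second peak inside the model with 7.5 and 8.87. Rpl3l had 3 peaks in every list. The peak at the start of its model had 10 fold in replicate 1 and 9.75 in replicate 2. A peak inside the model, at another listed start, had 18.5 and 8.42. The peak beyond its 3′ end, in the window of Msrb1, had 10.5 and 13.3. No Rpl3l peak reached the folds of the gene-end peak of Rpl3 in either replicate.

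The peaks sat just upstream of the starts. The summit of the strongest peak at a listed start lay at a median of 47 bp before the start in replicate 1 and 54 bp before it in replicate 2, with 52 bp before it in both replicates for all genes. The members were more tightly placed: the median distance in either direction was 79 bp and 64 bp, beside 110 bp and 116 bp for all genes. Within 250 bp of a listed start lay 54 of 57 summits (94.7%) in replicate 1 and 55 of 58 (94.8%) in replicate 2, beside 70.9% and 69.8%. Summits were upstream at 44 (77.2%) and 45 (77.6%), beside 69.0% and 66.9%.

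Most peaks also ran over the start itself, at 55 of 57 members (96.5%) in replicate 1 and 57 of 58 (98.3%) in replicate 2, beside 77.3% and 76.1% of all genes with such a peak. Among the 57 members with peaks in both replicates, 54 had both summits within 250 bp, beside 64.0% of all genes. The exceptions were Rpl35, Rplp2 and Rps19. Rps19 had its summit 466 bp and 511 bp before the nearest listed start, in a wide peak that covered the start. Rpl35 had its summits 687 bp and 641 bp before it, and those peaks did not reach the start. A second, lower peak of Rpl35, with 6.5 and 5.76 fold, covered the start in each replicate.

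**Figure D3:**
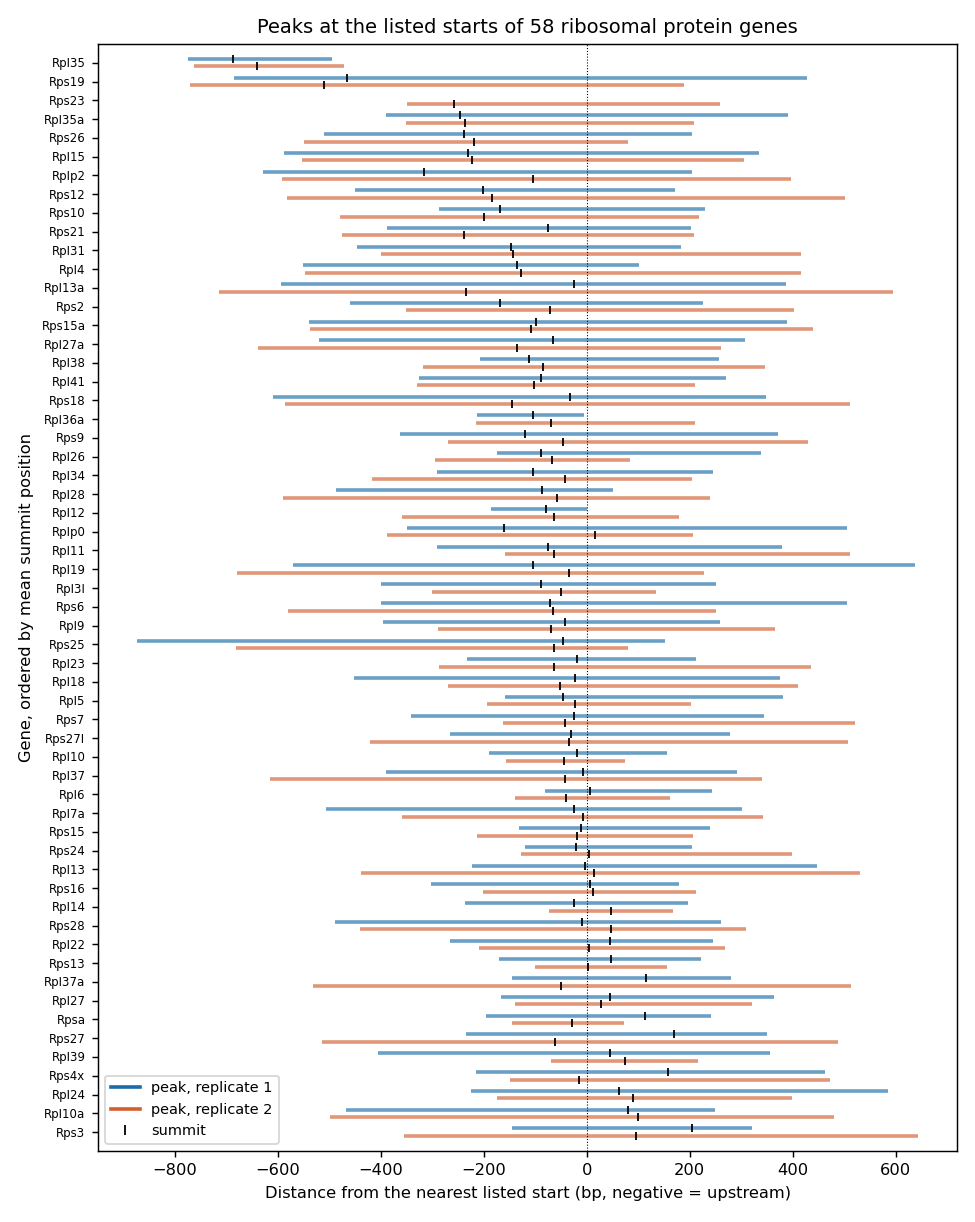
Extent of the strongest peak at a listed RefSeq start of 58 genes, in bp from the nearest listed start (negative is upstream), for replicate 1 (blue bars) and replicate 2 (orange bars), with the summits as black ticks. The bars of Rpl35, for the higher of its peaks, stand apart upstream of the start, with summits at 687 bp and 641 bp before it, and nearly all others cross it.

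**Figure D4:**
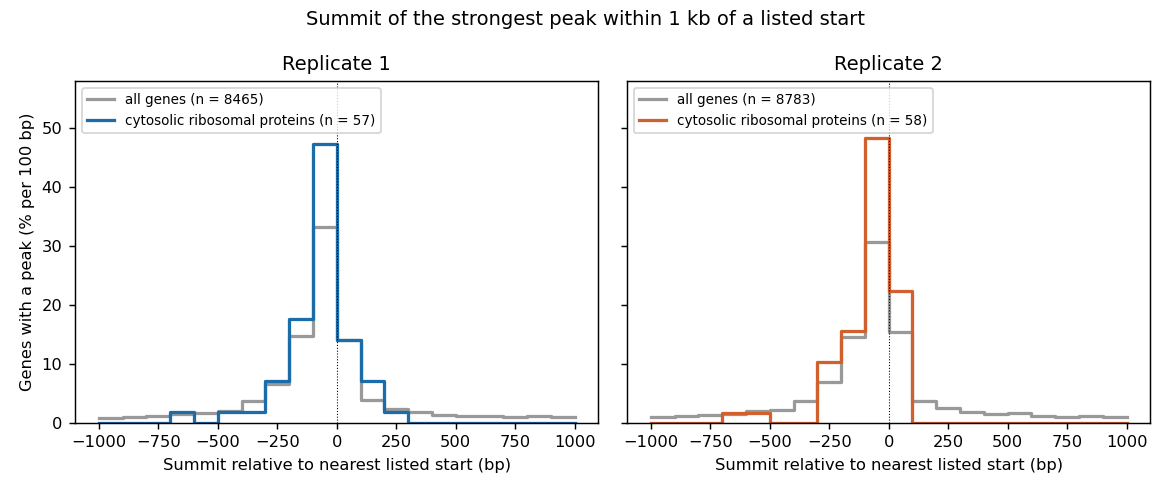
Share of genes with a peak (% per bin of 100 bp) by the distance of the summit from the nearest listed start, in replicate 1 (left) and replicate 2 (right), for the ribosomal protein genes (57 and 58, coloured) and all genes (8465 and 8783, grey). Summits of the ribosomal protein genes crowd into the bins next to the start, where 94.7% and 94.8% lie within 250 bp.

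By the median, the peaks were wider than those of all genes in each list. In the series-wide list the median width of the strongest gene-end peak was 756.5 bp, beside 644 bp over all genes. In replicate 1 it was 656 bp, beside 510 bp, and in replicate 2 it was 675 bp, beside 508 bp. A width of 1000 bp or more was reached by 10 members (16.1%) in the series-wide list, beside 19.1% of all genes. In replicate 1 it was 4 (5.48%), beside 9.87%, but in replicate 2 it was 12 (16.2%), beside 10.6%, so the share of very wide peaks was below that of all genes in replicate 1 and above it in replicate 2.

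Rps19 had the widest series-wide peak, 1112 bp, with 1112 bp in replicate 1 and 959 bp in replicate 2. Rps29 had 1109 bp and 923 bp in the replicates, and Rpl30 had 1067 bp and 1021 bp. The peak of Rps21 was 1072 bp wide in the series-wide list but 590 bp and 686 bp in the replicates, since the series-wide entry was not a copy of either. This was so at 8 members, Rpl12, Rpl23a, Rpl37 and Rps3 among them (12.9% of those with a peak, beside 11.7% of all genes). Among the narrowest were Rpl10 with 233 bp, Rpl18 with 273 bp and Rps15 with 421 bp. Among these genes the wide peak of Rpl30 had 10 and 7.98 fold, below the narrow peak of Rpl10 with 15.0 and 18.2.

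A peak near a gene end can belong to a neighbour. At 20 of the 62 members with a series-wide peak, it also lay within 1 kb of an end of another protein-coding gene (32.3%, beside 30.6% of all genes with a peak). The strongest of these were Rpl41 with Zc3h10, Rpl37 with Card6, Rpl4 with Zwilch and Rpl35a with Iqcg. For such genes the peak cannot be assigned to a single promoter.

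A second series-wide peak at a gene end was seen at 9 members, Rpl36, Rpl3l, Rpl4, Rpl41 and Rps10 among them. The share of all genes with a second peak is not given here, so whether this count is high cannot be told. At Rpl41 the second peak lay beyond the other end of this short gene, with 17.3 fold. At Rpl4 it had 12 fold, and at Rps10 8.87. Among the 61 members with strand, the model start had a series-wide peak at 43 (70.5%) and the 3′ end at 9 (14.8%), beside 32.9% and 5.93% of all genes. In short genes the windows of both ends lie close together.

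Many ribosomal protein genes carry small nucleolar RNAs in their introns, which guide the modification of ribosomal RNA. Of the 81 members, 29 held 58 such genes. Series-wide gene-end peaks lay at 23 of these 29 hosts (79.3%) and at 39 of the 52 other members (75%). The strongest series-wide peak overlapped a small nucleolar RNA gene at 3 members, Rpl3 and Rps20 among them. The share of all genes with such an overlap is not given here, so whether this count is high cannot be told.

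Ribosomal protein genes have many pseudogenes, mostly processed copies without the promoter. Of 320 pseudogenes named after Rpl or Rps genes, 2 (0.625%) had a series-wide peak on their body, 4 (1.25%) one in replicate 1 and 18 (5.62%) one in replicate 2. Over all 10104 pseudogenes the shares were 1.76%, 3.37% and 4.20%. The share was below that of all pseudogenes in the series-wide list and replicate 1 and above it in replicate 2. Reads from exons of a gene and its copies can be hard to tell apart, and how such reads were handled is not given in the sources used here.

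Other genes of translation were given the same count. Of 78 genes for mitochondrial ribosomal proteins, which are built into a separate ribosome, 76.9% had a series-wide peak, 91.0% one in replicate 1 and 92.3% one in replicate 2. For 39 proteasome subunits these were 76.9%, 89.7% and 89.7%, and for 47 initiation factors 68.1%, 80.9% and 80.9%. With 76.5%, the cytosolic ribosomal genes were close to the mitochondrial ribosome and the proteasome in this share. The median series-wide fold was 16 for the mitochondrial ribosome, 13.0 for the proteasome and 13.5 for the initiation factors, beside 14.5 for the cytosolic ribosome. Of these 4 lists the cytosolic ribosomal genes had the largest median width in the series-wide list, 756.5 bp, and the initiation factors followed with 687 bp.

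The share of summits close to a start was lower in these lists than in the cytosolic ribosomal genes. Within 250 bp of a listed start lay 82.1% and 87.7% of the summits of mitochondrial ribosomal genes in replicates 1 and 2, 80% and 76.7% of those of the proteasome, and 78.1% and 75% of those of the initiation factors, beside 94.7% and 94.8%. The median distance did not separate the ribosomes, with 80 bp and 59 bp for the mitochondrial ribosome beside 79 bp and 64 bp. The differences were not tested.

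Genes of other mRNAs with a TOP tract were counted in the same way. Of 20 elongation factors and other TOP mRNAs, 19 (95%) had a series-wide peak, 18 (90%) one in replicate 1 and 17 (85%) one in replicate 2, beside 34.9%, 48.2% and 50.2% of all genes. Their median peak widths were 918 bp, 734 bp and 810 bp, larger than those of the cytosolic ribosomal genes in each list. Rack1, a protein of the small subunit that docks kinases, had 28.0 fold in replicate 1 and 28.8 in replicate 2. Eef1d, a subunit of the elongation factor that reloads eEF1A with GTP, had 21.0 and 22.2, and Eif3h, of initiation factor eIF3, had 24.0 and 19.5. Eef2, which moves the ribosome along the mRNA, had 11.5 and 9.75. Btf3 had no series-wide peak, and Hnrnpa1 and Eif4b had one in the series-wide list and none at a gene end in a replicate list.

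Genes that control or assemble ribosomes formed the other list. A series-wide peak lay at 31 of 39 (79.5%), a replicate 1 peak at 35 (89.7%) and a replicate 2 peak at 37 (94.9%), beside 34.9%, 48.2% and 50.2% of all genes. Eif4ebp1, a repressor of cap-dependent initiation and a known ATF4 target, had 34.0 fold in replicate 1 and 31.9 in replicate 2. Sbds, which releases eIF6 from the large subunit, had 32.5 and 27.5, and Polr1c, of RNA polymerases I and III, had 30 and 29.7. Mtor had 8.5 and 9.75. Larp1, which binds TOP tracts, and Ubtf, a factor of ribosomal RNA transcription, had no gene-end peak in any list.

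Some symbols just outside the rule were also read. Rps3a1 had 14.0 fold in replicate 1 and 14.6 in replicate 2. Fau, a fusion of a ubiquitin-like protein and a ribosomal protein, had 8.0 and 12.4. Rpl22l1, Rpl7l1 and Rpl36al had no series-wide peak. Rpl7l1 had 11.5 and 7.09 fold in the replicates, and Rpl36al had a peak of 6.65 fold in replicate 2 alone. Rps3a1 and Fau lie within the range of the members.

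Letters of known motifs were counted in the RefSeq promoters, from 250 bases before to 50 after each listed start, on both strands, for 61 members and 17492 genes in all. The C/EBP-ATF response element TGATGNAA was in 0 of the 61, beside 4.13% of all genes and 2.99% of all genes with a series-wide peak at a listed start. A count of 0 says only that these letters are not in this window. The full cAMP response element TGACGTCA was in 5 members (8.20%), Rpl13, Rpl18, Rpl26, Rpl27a and Rps9, beside 2.54% of all genes and 4.37% of those with a peak. Its core TGACG, which the full element contains, was in 30 members (49.2%), beside 26.2% and 39.6%.

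The middle of the full element lay at most 65.5 bp from the summits in all 5 of those genes. Letters were searched only around listed starts, where most summits also lay, so the search window itself favours short distances. Whether the full element lay closer to the summits than other letters was not tested. The middle of the element was 16.5 bp from the summit of replicate 1 and 34.5 bp from that of replicate 2 at Rpl13. At Rps9 it was 65.5 bp and 7.5 bp. At Rpl18 the distances were 52.5 bp and 24.5 bp, at Rpl26 41.5 bp and 63.5 bp, and at Rpl27a 27.5 bp and 42.5 bp. At these starts Rpl18 had 14.5 fold in replicate 1 and 19.5 in replicate 2, and Rpl26 had 7.5 and 17.3. Rps9 had 17.0 and 13.3, Rpl13 had 15.5 and 14.2, and Rpl27a had 10.5 and 12.4. In the promoters printed above, the full element of Rpl13 stands near the end of the line and that of Rpl26 further upstream.

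The ETS and YY1 letters were more frequent than the full element but less frequent than its core. The ETS letters CCGGAAG were in 25 members (41.0%), beside 12.9% of all genes and 23.3% of those with a peak. At Rps6 they lay 17 bp and 23 bp from the summits of replicates 1 and 2, at Rps26 27 bp and 8 bp, and at Rpl41 35 bp and 49 bp. These are the strong genes printed above, and distances at other members were smaller or larger. At Rps25, with 7.5 and 10.6 fold, they were 23 bp and 6 bp. At Rps7, with 10.5 and 14.2 fold, they were 14 bp and 31 bp. At Rpl35 they were 563 bp and 517 bp, to the summits of its higher peak, and at Rpl31 158 bp and 154 bp. The YY1 letters AAGATGG were in 9 members (14.8%), beside 7.18% and 8.78%. In the printed line of Rps26 the last 2 of these letters fall beyond the end.

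A run of at least 5 pyrimidines over the listed start, as in a TOP tract, was in 21 members (34.4%), beside 10.2% of all genes and 11.4% of those with a peak. Rps6 and Rps9 show such a run in capitals near the end of their lines. The CCAAT letters were in 19 members (31.1%), beside 42.3% and 45.7%, and TATAAA was in 7 (11.5%), beside 14.8% and 9.01%. The E-box CACGTG was in 6 (9.84%), beside 8.91% and 12.3%. Members with and without a series-wide peak at a listed start both held them: ETS letters were in 20 of 47 with and 5 of 14 without, and TGACG in 24 of 47 and 6 of 14. Of the 14, only Rpl10l, Rpl32l and Rpl39l had no such peak in either replicate. The split is therefore not one between genes with and without any peak.

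**Figure D5:**
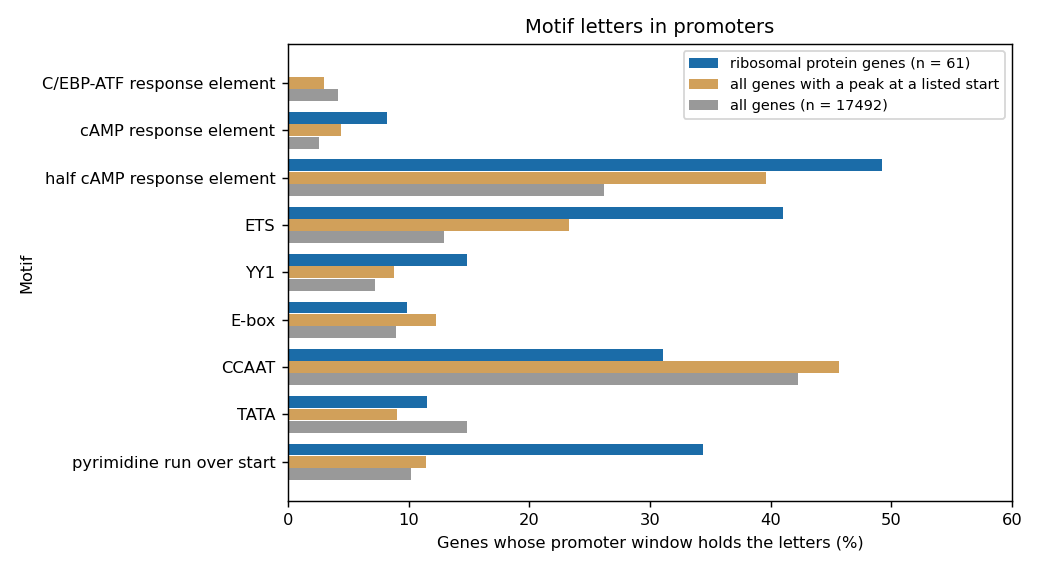
Share of genes (%) whose RefSeq promoter holds the letters of each motif, for 61 ribosomal protein genes (blue), all genes with a series-wide peak at a listed start (tan) and all 17492 genes with an entry (grey). The core of the cAMP response element reaches 49.2% and the ETS letters 41.0% of the ribosomal protein genes, and the C/EBP-ATF letters are in none.

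CpG content moved with the presence of a peak over all genes. Their promoters held a median of 22 CpG where a series-wide peak lay at a listed start and 6 where none did, and the ribosomal protein genes held 21. Among genes with 7 to 21 CpG, 43.8% of all genes and 25 of 31 members (80.6%) had such a peak. Among those with 22 to 65 CpG, 57.5% of all genes and 21 of 28 members (75%) had one. In the replicates all 28 members of this class had a peak, beside 76.4% and 78.2% of all genes. The members' shares were above those of all genes in both classes, and only 2 members had 0 to 6 CpG. Whether CpG content had a part in the peaks was not tested.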

How the data were processed

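Peak lists of 2 kinds were used, as deposited by the authors for the series and for each ATF4 pull-down sample. The series-wide list gives each peak's fold (a ratio), and the replicate lists give a −log10 p-value or q-value, deposited without a statement of which. The tools Bowtie2, MACS2 and deepTools and the build mm10 stand without versions per the submitters' processing notes. Their order and settings are not given in the sources used here. Folds of all replicate peaks were inferred from their −log10 p-value or q-value. The key was the most frequent fold of identical series-wide peaks with that value (17420 and 21053 peaks, tolerance 0.001). The steps were continued to the lowest 4 and 5 values. Summits came from the replicate lists, since series-wide peaks that were no copies had offsets at a median of 23.7% of their width, beside 49.3% in copies. The median distance to a model end or start, given below, started from series-wide summits instead. Overlap of at least 1 bp with 1 kb around an end of a RefSeq GRCm38.p6 model counted as a gene-end peak. Strand and listed starts came from the RefSeq promoter table. Results are counts and medians without a test. The members and lists were chosen with earlier results of these data known. By rule, the text names the 12 highest and 6 lowest folds, the 4 widest and 4 narrowest peaks, members without a series-wide peak, the 4 widest summit gaps, the P-stalk, Rpsa, Rps6, the paralogs and the 4 strongest shared windows; other names were chosen after their values were seen, and some genes of the rule are counted but not reported here by name. On simulated data with 21900 genes, 200 of 200 placed peaks were recovered. Alternatives were other windows, overlaps, fold thresholds, member rules and each replicate alone. The computation used pandas 2.3.3 and NumPy 2.4.6 in Python 3.11.15, with Matplotlib 3.10.9 for plots and SciPy 1.17.1 for rank correlation.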

Additional observations from a re-analysis of the deposited data

How the results depend on the processing

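The count of 62 members with a series-wide gene-end peak stayed within 1.5 times under all alternatives but 3. Among 81 members it could not rise by 1.5 times, so only a fall could pass this limit. It was 9 with the 3′ end alone (of 61 members with strand, where all genes had 5.93%), 37 with the 50% of peaks of highest fold (all genes 16.7%) and 13 with the 20% of highest fold (all genes 5.66%). With a single replicate it was 73 to 74 (all genes 48.2% and 50.2%). With windows of 5 kb it was 70 (all genes 47.4%), and with the gene body and 1 kb on either side 66 (all genes 50.5%). At the start alone it was 43 of the 61 members with strand (all genes 32.9%). The count of 73 members in both replicates moved by less than 1.5 times under all 6 alternatives. This count could not rise by 1.5 times either. The median fold of 14.5 was 15.5 with windows of 5 kb, 14.0 at the start alone and 12.5 to 12.6 with a single replicate. The median width of 756.5 bp was 771.5 bp with windows of 500 bp, 733.5 bp with 5 kb, 795 bp for the widest peak of each gene and 656 to 675 bp with a single replicate. The median distance from summit to model end or start was 99 bp with series-wide summits, those of the 8 members whose peak was no copy included. This distance was 141.5 bp with 5 kb, 67 bp without replicate 1 and 87.5 bp without replicate 2. In settings chosen after seeing the data it was 75 bp for peaks identical to a replicate peak, and 79 bp and 64 bp to the nearest listed start in replicates 1 and 2. At the members with a series-wide peak, its fold was the higher of the 2 replicate folds. Medians from a single replicate thus include lower folds by construction. The single-replicate lists were also longer, with 78746 and 88812 peaks beside 41639 in the series-wide list. Apart from the peaks or samples that a setting itself adds or leaves out, the cause of these changes was not tested. No paired analysis was possible because the results come from no test and the input values are not analysed here. Depth is unknown, so no limit of detection can be given for a gene without a peak, and with 2 samples an SD is itself imprecise.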
